A study of Mus musculus with 4 samples.

Results

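The 35 genes described here encode the proteins that bring glucose into the cell, break it down to pyruvate and decide what becomes of the pyruvate, together with Hif1a, a transcription factor of the low-oxygen response. They were chosen by name, as a list of glucose transporters, glycolytic enzymes, lactate enzymes and transporters, and the pyruvate dehydrogenase subunits and kinases, and all 35 were among the 23906 gene symbols of the deposited files. The values are FPKM, sequenced fragments scaled to the length of the transcript and to the size of the library, so that levels of different genes can be compared per length. The 4 samples were LSK-SLAM cells, a sort for cells that carry Sca1, cKit and CD150 and lack lineage markers and CD48, which enriches for haematopoietic stem cells (HSCs). They came from BRE-GFP transgenic mice kept on a C57BL/6 background, in which GFP is made when BMP signals through Smad1/5 to a BMP responsive element, so that GFP reports activation at the time of sorting and not its history. A single sample each was taken of GFP+ (BMP-activated) and GFP- (non-BMP-activated) cells of the fetal liver (FL) at embryonic day 14 and of GFP+ and GFP- cells of adult bone marrow (BM). The study gives an age range for the adult donors of its transplants, but the age of the adults and the number of animals behind these RNA samples are not given in the sources used here. No group had a replicate, and a difference between 2 samples therefore has no replicate check.

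Glycolysis starts with glucose uptake and phosphorylation by hexokinase, passes its main control point at phosphofructokinase, and ends with pyruvate kinase. Pyruvate is then either reduced to lactate by lactate dehydrogenase and exported through monocarboxylate transporters, or taken into mitochondria and oxidized by pyruvate dehydrogenase, which the pyruvate dehydrogenase kinases switch off. Most steps have several isozymes from separate genes, and cell types differ in which they use. Adult HSCs are known for a reliance on glycolysis, with roles described for Hif1a and for pyruvate dehydrogenase kinases, whereas HSCs of the FL divide more often.

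The FL and BM labels were checked against 10 fetal genes. Their summed FPKM was 548 (GFP+) and 194 (GFP-) in FL and 8.43 (GFP+) and 7.60 (GFP-) in BM, so the fetal programme followed the tissue labels. GFP itself was not a row of the files. The stem cell genes Procr and Tek were listed at 0 in BM GFP+ cells, against 60.8 and 5.54 in BM GFP- cells and 41.5 to 113 in the FL samples. Cd48, whose protein the sort selects against, was at 51.4 (GFP+) and 17.4 (GFP-) in FL and 267 (GFP+) and 126 (GFP-) in BM. The summed FPKM of 12 granulocyte genes was 588 (GFP+) and 310.5 (GFP-) in FL, but 65387 (GFP+) and 18058.5 (GFP-) in BM, where all 12 were detected. B cell genes summed to 43.5 to 96.3 in the FL and to 955 to 3493 in the BM, and erythroid genes to 1939 to 2003 in the FL and 3578 to 25209.5 in the BM. Sums for T cell genes were 12.9 and 15.7 (FL) and 273 and 90.4 (BM), for macrophage genes 59.0 and 45.04 (FL) and 293 and 104 (BM), and for megakaryocyte genes 58.9 and 78.3 (FL) and 372 and 460.3 (BM), each as GFP+ then GFP-. The lineage antibodies of the sort were against CD3, B220, Ter119 and Ly6c, with CD11b added for the BM, and none was against a megakaryocyte marker. The part of RNA from other cells in the results below was not tested, and fewer cells of a type and less RNA per cell cannot be told apart in such samples. None of 17 housekeeping genes was at 0 in any sample. From the steps between the lowest FPKM values, 1 fragment on a transcript of 1 kilobase was worth about 0.085 (GFP+) and 0.075 (GFP-) FPKM in FL and 0.105 (GFP+) and 0.075 (GFP-) in BM.

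The genes spanned the whole range of expression. Of the 35, 31 were detected in all 4 samples, 21 had at least 10 FPKM in each sample, and 8 had at least 100 FPKM in each. These 8 were Gpi1, Aldoa, Tpi1, Pgk1, Pgam1, Eno1, Pkm and Ldha, which encode main enzymes of the chain from hexose phosphate to pyruvate and of lactate formation. Ldha, which encodes the A subunit of lactate dehydrogenase, was the highest of the list in all samples except BM GFP+, where Pkm was, with 1213 (GFP+) and 978 (GFP-) FPKM in FL and 743 (GFP+) and 1111 (GFP-) in BM. Among all genes it ranked 65 (GFP+) and 61 (GFP-) in FL and 204 (GFP+) and 102 (GFP-) in BM. At the other end, Pgam2, Eno2, Pdk4 and Slc16a3 were each listed at 0 in at least 1 sample.

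**Figure D1:**
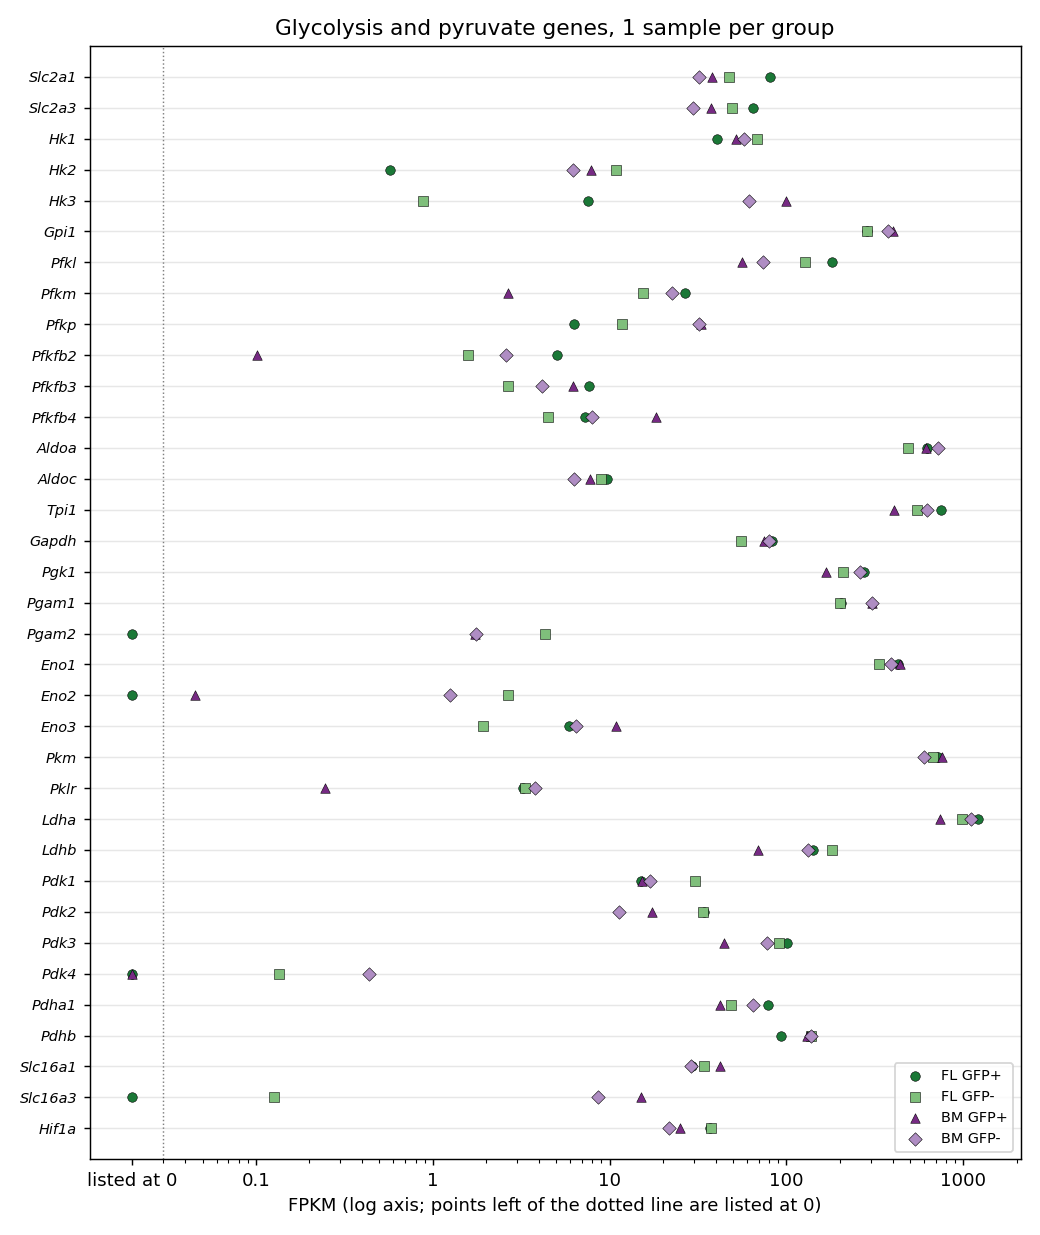
FPKM of each of the 35 genes (rows) on a log axis, with 1 point per sample for FL GFP+, FL GFP-, BM GFP+ and BM GFP- cells and points left of the dotted line for values listed at 0. The points of the 8 main enzymes lie close together above 100 FPKM, whereas those of Hk3, Slc16a3, Pfkfb2, Eno2 and Pklr are spread over more than a factor of 10.

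The promoters of 5 of the genes are shown here, because they belong to the genes whose levels differ most plainly between tissues (Hk3, Slc16a3 and Pfkp, higher in BM, and Pfkl, higher in FL GFP+ than BM GFP+) and to the gene that is highest in all samples except BM GFP+ (Ldha, shown for the upstream one of its 2 listed starts). Each is the 250 bases before the RefSeq gene start on GRCm38.p6, in the gene's direction. Capitals mark ACGTG on either strand (read as CACGT on the other), a form of the core of the element that HIF factors bind, which overlaps the CACGTG element of MYC-type factors. GCGTG, the other form of that core, was not marked or counted.
Hk3, chr13:55021386-55021635, minus strand: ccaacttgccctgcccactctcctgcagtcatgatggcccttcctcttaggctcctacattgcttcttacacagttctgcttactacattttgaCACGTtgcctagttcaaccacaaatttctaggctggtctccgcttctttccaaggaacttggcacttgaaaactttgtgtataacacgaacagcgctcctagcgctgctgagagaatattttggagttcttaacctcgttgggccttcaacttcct
Slc16a3, chr11:120948817-120949066, plus strand: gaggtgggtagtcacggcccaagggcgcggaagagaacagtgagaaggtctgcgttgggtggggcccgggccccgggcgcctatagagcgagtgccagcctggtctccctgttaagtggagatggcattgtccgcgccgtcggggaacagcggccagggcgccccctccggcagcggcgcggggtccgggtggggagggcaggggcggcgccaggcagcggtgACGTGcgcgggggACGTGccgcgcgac
Pfkp, chr13:6648772-6649021, minus strand: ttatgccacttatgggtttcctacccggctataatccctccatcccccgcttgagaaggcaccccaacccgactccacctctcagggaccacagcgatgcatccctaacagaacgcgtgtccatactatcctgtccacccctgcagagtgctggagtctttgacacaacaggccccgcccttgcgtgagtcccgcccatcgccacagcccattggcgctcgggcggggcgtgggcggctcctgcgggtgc
Pfkl, chr10:78009808-78010057, minus strand: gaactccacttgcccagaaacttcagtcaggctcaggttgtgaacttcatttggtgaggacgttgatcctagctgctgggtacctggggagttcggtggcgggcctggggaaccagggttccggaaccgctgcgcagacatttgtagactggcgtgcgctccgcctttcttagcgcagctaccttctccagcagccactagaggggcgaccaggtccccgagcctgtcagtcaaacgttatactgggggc
Ldha, chr7:46845554-46845803, plus strand: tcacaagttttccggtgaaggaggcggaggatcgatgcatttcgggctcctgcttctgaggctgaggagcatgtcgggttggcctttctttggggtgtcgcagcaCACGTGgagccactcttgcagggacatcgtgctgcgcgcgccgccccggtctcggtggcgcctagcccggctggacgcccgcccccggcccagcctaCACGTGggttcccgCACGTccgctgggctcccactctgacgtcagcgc
The Ldha promoter shown held 5 matches to ACGTG, counting both strands of each palindrome. The window of the other listed Ldha start, which is not shown, held no match. The promoter of Slc16a3 held 2 matches and that of Hk3 held 1. Those of Pfkp and Pfkl held no ACGTG in this window, but both hold the uncounted form GCGTG. RefSeq promoters were found for 34 of the 35 genes, with 51 starts in all. At least 1 match lay in 21 of these 51 windows, some of which overlap, and in 16.6% of the 32851 windows of all genes. A match describes these letters and is not evidence of binding.

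The glucose transporters of the list had higher levels in FL than in BM, past 2-fold in 1 comparison as deposited. Slc2a1, which encodes GLUT1, had 81.3 (GFP+) and 47.5 (GFP-) FPKM in FL and 37.8 (GFP+) and 32.2 (GFP-) in BM. Slc2a3, which encodes the high-affinity transporter GLUT3, had 64.8, 49.3, 37.6 and 29.5 in the same order. Both FL samples lay above both BM samples for each gene, and within each tissue the GFP+ sample was the higher as deposited, an order that turned in the BM for both genes when every sample was scaled to the same FPKM total. As deposited, the difference passed 2-fold only for Slc2a1 between the GFP+ samples, at 2.15-fold. Their shares of the summed transporter FPKM were nearly even, with Slc2a1 at 49.0 to 55.6%. Slc2a6, a transporter outside the list, was listed at 0 in both FL samples and had 14.98 (GFP+) and 5.14 (GFP-) FPKM in BM.

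Hexokinase, which traps glucose in the cell as glucose phosphate, showed the plainest exchange of isozymes. Hk3 had 7.55 (GFP+) and 0.887 (GFP-) FPKM in FL and 99.1 (GFP+) and 61.4 (GFP-) in BM. Both BM samples were thus above both FL samples, by 13.1-fold between the GFP+ and 69.2-fold between the GFP- samples. Hk1, the widely expressed isozyme, had 40.4, 67.7, 51.9 and 57.8 and stayed within 2-fold in all 4 comparisons as deposited. Hk1 made up 83.3 and 85.3% of the summed hexokinase FPKM in FL GFP+ and GFP- cells, but 32.7 and 46.1% in the BM, where Hk3 made up 62.4 and 49.0%. These shares do not depend on how the samples were scaled. Hk2, the isozyme often raised in proliferating cells, was low in FL GFP+ cells, at 0.575 FPKM, against 10.8 in their GFP- counterpart and 7.90 (GFP+) and 6.21 (GFP-) in BM. The Hk2 difference between the FL fractions was 18.8-fold. Hk3 is known to be prominent in myeloid cells, and the granulocyte genes given above were also far higher in both BM samples. The sums of the B cell, T cell, macrophage, erythroid and megakaryocyte genes were higher in both BM samples too. Between the BM fractions, 8 of the 12 granulocyte genes were past 2-fold higher in GFP+ cells, against 18% of 17802 genes. The other 4 were not, and Hk3 was 1.61-fold higher. The part of RNA from granulocytes or these other lineages in the Hk3 level was not tested.

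Gpi1, which interconverts the hexose phosphates, stayed within 2-fold, with 286 (GFP+) and 284 (GFP-) FPKM in FL and 400.3 (GFP+) and 373 (GFP-) in BM. The phosphofructokinase genes, which encode the liver, muscle and platelet type subunits of the controlling enzyme, again differed by isozyme. Pfkl had 180.2 (GFP+) and 128 (GFP-) FPKM in FL and 56.3 (GFP+) and 73.9 (GFP-) in BM, so both FL samples were higher than both BM samples. Pfkp had 6.26, 11.8, 32.9 and 31.9, the opposite order. The Pfkp level was 5.25-fold higher in BM than FL GFP+ cells and 2.70-fold higher in BM than FL GFP- cells. Pfkl was 3.20-fold higher in FL than BM GFP+ cells and within 2-fold between the GFP- samples as deposited. With equal FPKM totals it was 2.33-fold higher in FL than BM GFP- cells. Pfkp made up 2.94 and 7.61% of phosphofructokinase FPKM in the GFP+ and GFP- cells of FL and 35.8 and 24.9% in those from BM. Pfkm was low in 1 sample, with 2.68 FPKM in BM GFP+ cells against 22.6 in their GFP- counterpart and 26.5 (GFP+) and 15.5 (GFP-) in FL.

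**Figure D2:**
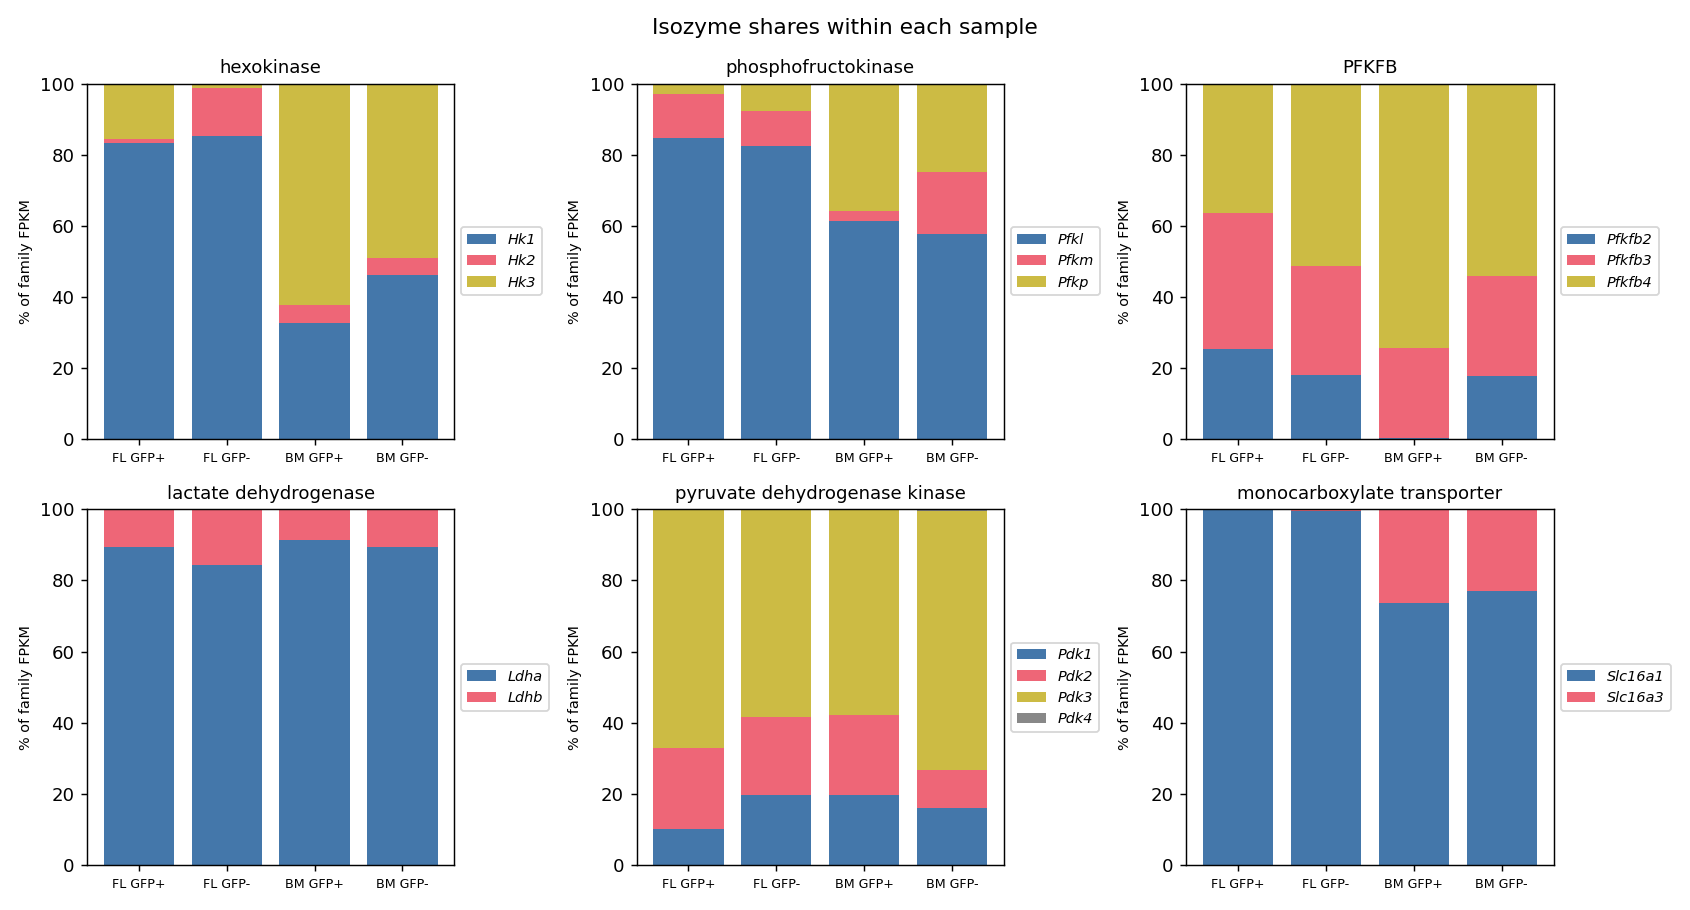
Percent of the summed FPKM of each isozyme family (y axis) in each of the 4 samples (x axis), for 6 families, with 1 colour per gene. Hk3, Pfkp and Slc16a3 take larger shares in both BM samples than in both FL samples, whereas Ldha holds 84.3 to 91.5% of its family and Pdk3 57.7 to 73.0% in every sample.

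The PFKFB enzymes set the level of the sugar bisphosphate that activates phosphofructokinase, and their genes were all expressed at low levels. Pfkfb2 had 5.06 (GFP+) and 1.57 (GFP-) FPKM in FL and 0.101 (GFP+) and 2.60 (GFP-) in BM. It was thus 3.22-fold higher in GFP+ than GFP- cells of the FL and 25.7-fold lower in GFP+ than GFP- cells of the BM. The BM GFP+ value corresponded to only about 7 fragments. Pfkfb3 had 7.70, 2.67, 6.24 and 4.14 in the same order, and Pfkfb4 had 7.28, 4.46, 18.4 and 7.93. For both genes the GFP+ sample was the higher in each tissue, past 2-fold in the FL for Pfkfb3 (2.88-fold) and in the BM for Pfkfb4 (2.32-fold). Of these 3 genes, Pfkfb3 led in FL GFP+ cells, with 38.4% of their summed FPKM, and Pfkfb4 in the other 3 samples, with 51.2 to 74.4%. Pfkfb1, another gene of the family outside the list, had 4.57 FPKM in FL GFP- cells, and with it counted the Pfkfb4 share there was 33.6%.

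The enzymes from aldolase to pyruvate kinase were held at high and similar levels by 1 dominant isozyme each. Aldoa had 627 (GFP+) and 486 (GFP-) FPKM in FL and 613 (GFP+) and 718 (GFP-) in BM, and took 98.2 to 99.1% of aldolase FPKM, with Aldoc at 6.27 to 9.68. Tpi1, which interconverts the triose phosphates, had 745, 549.95, 403 and 624, and Pgk1, the first step that yields ATP, had 273, 208, 167 and 262. Pgam1, the mutase that follows, had 204, 200.1, 304 and 303. Eno1 had 428, 334, 438 and 392 FPKM, and Pkm, which encodes the pyruvate kinase of most non-hepatic cells, had 721, 673, 758 and 603. None of these genes passed 2-fold in any of the 4 comparisons as deposited. With equal FPKM totals, Tpi1 and Pgk1 were lower in BM GFP+ than in BM GFP- cells, by 2.12-fold and 2.16-fold. Both were then also lower in BM GFP+ than in FL GFP+ cells, by 2.86-fold and 2.54-fold. Gapdh, which catalyses the step between Tpi1 and Pgk1, was listed at only 83.2, 55.6, 74.5 and 79.5 FPKM. A search of the NCBI37 genome found 115 other places that match at least 50% of its transcript at 90% identity or more, against 8 for Ldha, 5 for Eno1 and 0 to 3 for each of the other genes. The authors' correction for multiply mapping reads divides such reads among places, and its part in the low Gapdh level was not tested.

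The minor isozymes of these steps varied more. Pgam2, the muscle form, was listed at 0 in FL GFP+ cells and had 4.30 FPKM in their GFP- counterpart, with 1.73 (GFP+) and 1.76 (GFP-) in BM. Eno2, the neuronal enolase, was likewise listed at 0 in the FL GFP+ sample, against 2.66 FPKM in its GFP- counterpart, with 0.0456 (GFP+, about 1 fragment) and 1.25 (GFP-) in BM. Eno3, the muscle enolase, had 5.88, 1.94, 10.8 and 6.47, with the GFP+ sample higher in each tissue, by 3.03-fold in the FL and 1.68-fold in the BM. Pklr, the liver and red cell pyruvate kinase, had 3.22, 3.31 and 3.81 in FL GFP+, FL GFP- and BM GFP- cells but 0.245 in BM GFP+ cells. That sample stood at about 7 fragments for Pklr, while its erythroid genes summed to 25209.5 FPKM. Pgam1, Eno1 and Pkm held at least 97.9, 97.6 and 99.4% of the FPKM of their families.

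The 19 core enzymes from hexokinase to pyruvate kinase summed to 3647 (GFP+) and 3046 (GFP-) FPKM in FL and 3429 (GFP+) and 3627 (GFP-) in BM. As a share of all FPKM this was 0.564, 0.563, 0.343 and 0.497%, lowest in BM GFP+ cells, the sample with the largest FPKM total. The summed level thus varied less between samples than its share, and which samples are called higher depends on the scale chosen.

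Lactate genes were dominated by Ldha, whose values are given above and which stayed within 2-fold in all 4 comparisons as deposited. With equal FPKM totals Ldha was lower in BM GFP+ than in BM GFP- cells (2.05-fold) and FL GFP+ cells (2.53-fold). Ldhb, the heart type subunit that is usually linked with lactate use, had 142 (GFP+) and 182 (GFP-) FPKM in FL and 68.9 (GFP+) and 132 (GFP-) in BM. The FL samples were higher than the BM samples, past 2-fold between the GFP+ samples (2.06-fold), and the GFP- sample was the higher in each tissue. The ratio of Ldha to Ldhb was 8.53 (GFP+) and 5.39 (GFP-) in FL and 10.8 (GFP+) and 8.40 (GFP-) in BM. Slc16a1, which encodes the transporter MCT1, had 29.1, 34.0, 42.4 and 28.8 and did not pass 2-fold. Slc16a3, which encodes the lactate exporter MCT4, was listed at 0 (GFP+) and 0.127 (GFP-) FPKM in FL, against 15.1 (GFP+) and 8.59 (GFP-) in BM. The difference between the GFP- samples was 67.4-fold, and Slc16a3 took 23.0 and 26.3% of the transporter pair in the BM against at most 0.373% in the FL. With Slc16a7, a transporter outside the list, counted, the Slc16a1 share in FL GFP+ cells was 60.8% in place of 100%. As for Hk3, granulocyte genes and the sums of the other blood lineages moved with this difference, and their part was not tested.

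Both pyruvate dehydrogenase subunits stayed within 2-fold in all 4 comparisons as deposited. With equal FPKM totals Pdha1 was lower in BM GFP+ than in BM GFP- cells (2.11-fold) and FL GFP+ cells (2.89-fold). Pdha1, the catalytic alpha subunit, had 79.1 (GFP+) and 48.8 (GFP-) FPKM in FL and 42.3 (GFP+) and 65.1 (GFP-) in BM, and Pdhb, the beta subunit, had 93.2, 138, 131 and 138. Among the kinases, Pdk3 led in every sample, with 100.4, 90.4, 44.6 and 77.9. Pdk2 had 34.2 (GFP+) and 33.8 (GFP-) in FL and 17.4 (GFP+) and 11.4 (GFP-) in BM, so that both FL samples were higher, by 2.97-fold between the GFP- samples. Pdk1, a HIF target in many cells, had 15.05 (GFP+) and 30.3 (GFP-) in FL and 15.3 (GFP+) and 17.0 (GFP-) in BM, and its difference between the FL fractions, 2.01-fold, lay just past the threshold. Pdk4 was listed at 0 in both GFP+ samples and had 0.136 FPKM (FL) and 0.438 FPKM (BM) in the GFP- samples. The summed kinase FPKM relative to Pdha1 was 1.89, 3.17, 1.83 and 1.64 in the order FL GFP+, FL GFP-, BM GFP+ and BM GFP-, highest in FL GFP- cells.

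Hif1a itself had 37.0 (GFP+) and 37.5 (GFP-) FPKM in FL and 25.1 (GFP+) and 21.7 (GFP-) in BM. Both FL samples were above both BM samples, within 2-fold as deposited, and the GFP fractions of each tissue were close. With equal FPKM totals the FL samples were higher by 2.28-fold (GFP+) and 2.33-fold (GFP-). Oxygen controls HIF1A chiefly through the stability of the protein, which was not measured.

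The GFP contrast asked which genes differ between BMP-activated and non-activated cells, and a level more than 2 times that in the other fraction was counted. The study required this in both tissues, which is given further on, and here each tissue was first counted alone. In the FL, 4 of 35 genes were past 2-fold higher in GFP+ cells (Hk3, Pfkfb2, Pfkfb3 and Eno3) and 6 were higher in GFP- cells (Hk2, Pgam2, Eno2, Pdk1, Pdk4 and Slc16a3, of which the last pair rested on about 6 and 7 fragments). Among all 16092 genes detected in either sample, 16.5% were past 2-fold higher in GFP+ and 38.4% in GFP- cells. In the BM, Pfkfb4 alone was higher in GFP+ cells, against 18% of 17802 genes, and 5 genes were higher in GFP- cells (Pfkm, Pfkfb2, Eno2, Pklr and Pdk4), against 36.7%. Among genes with at least 10 FPKM in either sample, 2 of 24 of the list passed in the FL (Hk2 and Pdk1) against 29.8% of all, and 2 of 27 in the BM (Pfkfb4 and Pfkm) against 29.3%. The median log2 ratio of (FPKM + 1) over the 35 genes was 0.099 for FL and -0.014 for BM, against 0.053 and 0.12 over all genes with at least 1 FPKM in either sample. Scaling every sample to the same FPKM total shifted all log2 ratios by -0.26 in the FL and -0.46 in the BM. The counts were then 4 higher in GFP+ and 8 in GFP- cells for FL, and 0 and 11 for BM. No share of all genes was counted at that scale.

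Agreement between tissues was examined next. No gene of the list was past 2-fold higher in GFP+ cells of both FL and BM, where 2.51% of all 18859 detected genes were. Eno2 and Pdk4, both at low levels, were past 2-fold higher in GFP- cells of both tissues, where 13.1% of all genes were. At a 1.5-fold threshold 4 genes of the list were higher in GFP+ cells of both tissues, where 5.74% of all genes were, namely Hk3 (8.51-fold and 1.61-fold), Pfkfb3 (2.88-fold and 1.51-fold), Pfkfb4 (1.63-fold and 2.32-fold) and Eno3 (3.03-fold and 1.68-fold). With equal FPKM totals the BM ratios fell to 1.18 (Hk3), 1.10 (Pfkfb3) and 1.22 (Eno3), and the FL ratio of Pfkfb4 to 1.37. None of the 4 then passed 1.5-fold in both tissues. A linear model with tissue as a block (limma on log2 of FPKM + 1, 1 residual degree of freedom per gene) called 0 of the 34 genes tested for GFP, against 0.111% of 11707 genes. The smallest adjusted p of limma in the list was 0.79, for Eno2, which was also the only 1 of the 34 with an unadjusted p under 0.05, where 6.25% of all genes had one.

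**Figure D3:**
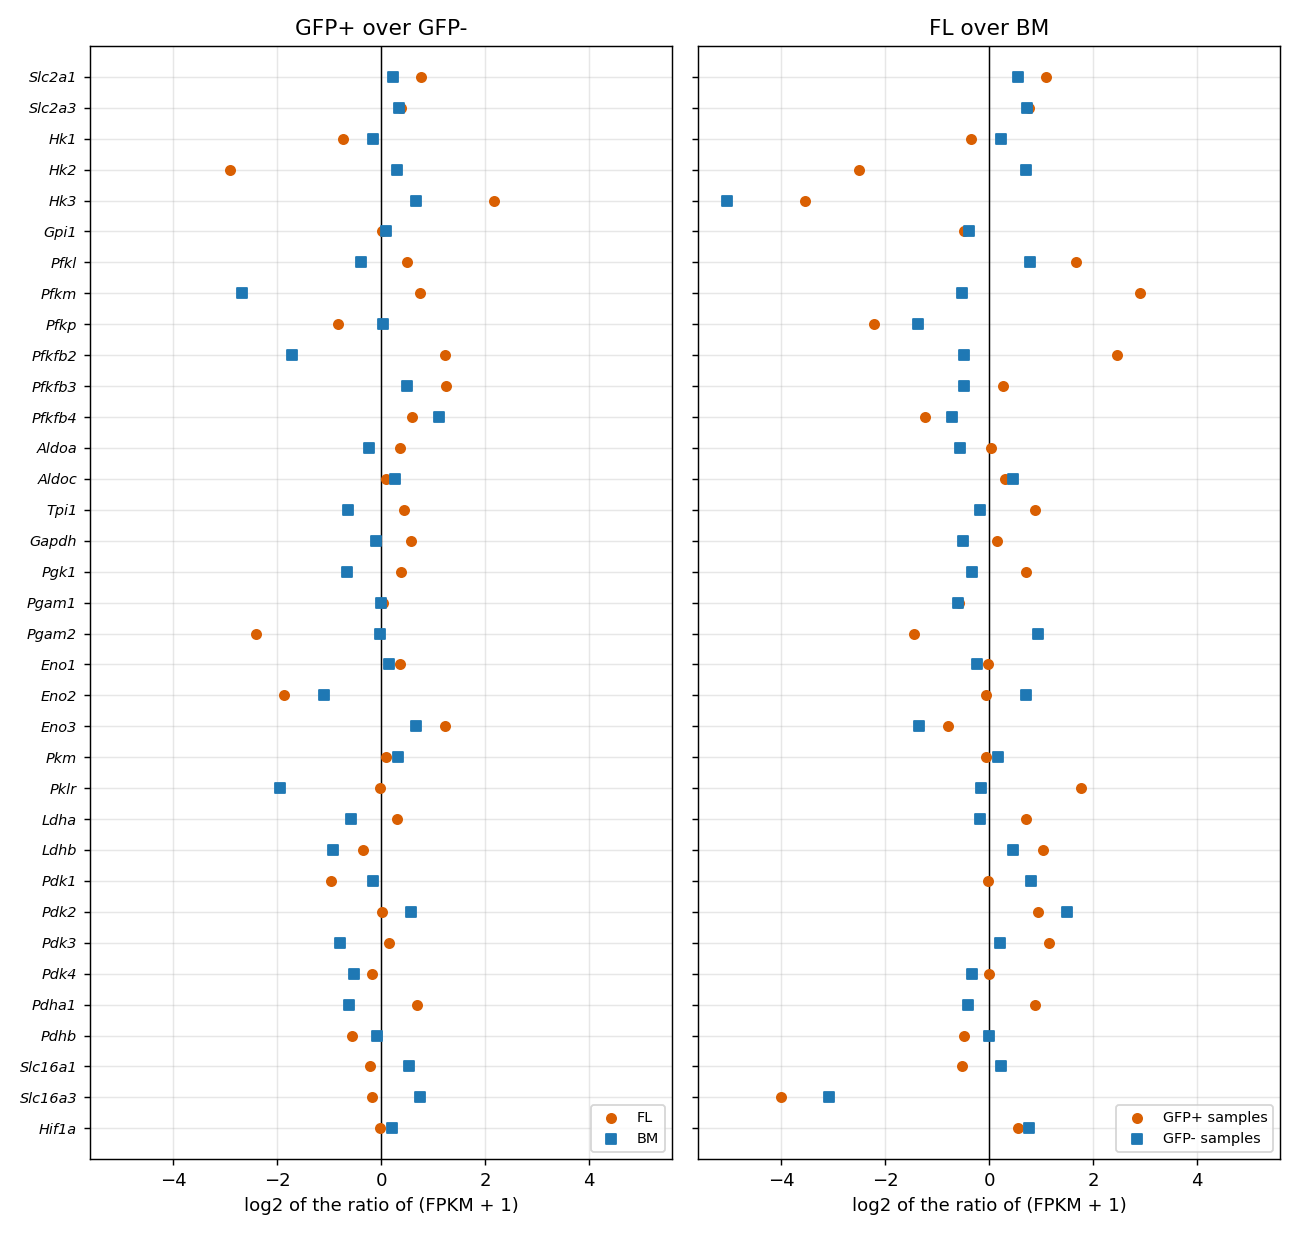
Log2 ratio of (FPKM + 1) for each of the 35 genes, with GFP+ over GFP- in the left panel (circles FL, squares BM) and FL over BM in the right panel (circles GFP+ samples, squares GFP- samples). In the left panel Pfkfb2 lies right of 0 in FL and left of it in BM, and Hk3, Slc16a3 and Pfkp lie left of 0 in both comparisons of the right panel.

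The tissue contrast asked how FL cells differ from BM cells. Between the GFP+ samples, 7 of 34 detected genes were past 2-fold higher in the FL (Slc2a1, Pfkl, Pfkm, Pfkfb2, Pklr, Ldhb and Pdk3), against 27% of 14837 genes, and 7 were higher in the BM (Hk2, Hk3, Pfkp, Pfkfb4, Pgam2, Eno2 and Slc16a3), against 36%. Between the GFP- samples, a comparison without the BM GFP+ sample that lacked Procr and Tek, 3 of 35 were higher in the FL (Pgam2, Eno2 and Pdk2), against 21.9% of 18409 genes, and 5 in the BM (Hk3, Pfkp, Eno3, Pdk4 and Slc16a3), against 29.2%. Hk3, Pfkp and Slc16a3 were past 2-fold higher in the BM in both fractions, where 10.7% of all genes were, and no gene of the list was past 2-fold higher in the FL in both, where 6.7% were. The median log2 ratio of FL over BM was 0.032 between the GFP+ and -0.18 between the GFP- samples, against -0.15 and -0.038 over all genes with at least 1 FPKM in either sample. Among genes with at least 10 FPKM in either sample, 9 of 27 of the list passed in either direction between the GFP+ samples against 50.7% of all, and 3 of 25 between the GFP- samples against 26.3%. With equal FPKM totals all log2 ratios shifted by 0.63 between the GFP+ and 0.43 between the GFP- samples. The counts became 14 higher in the FL and 6 in the BM between the GFP+ samples, and 8 and 5 between the GFP- samples. The shares of all genes given above are for the deposited scale and cannot be set beside these counts.

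In the same model with GFP as a block, Hk3 was the 1 gene of 34 called between tissues, against 2.46% of 11707 genes. Its log2 difference of FL minus BM was -4.30 (SE 0.68) with a limma adjusted p of 0.0151, and it was lower in both FL samples than in both BM samples. Slc16a3 had a log2 difference of -3.55 (SE 0.86) with a limma adjusted p of 0.0768 and did not pass. Slc16a3, Pfkl, Pfkp and Hk3 were the 4 with an unadjusted p under 0.05, where 17.2% of all genes had one. The call for Hk3 was lost with limma's variance trend left out (adjusted p = 0.136), with a pseudocount of 0.1 (adjusted p = 0.0872) and without the GFP block (adjusted p = 0.0595). The replicates of this test are the 2 GFP fractions, not separate animals of 1 group.

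**Figure D4:**
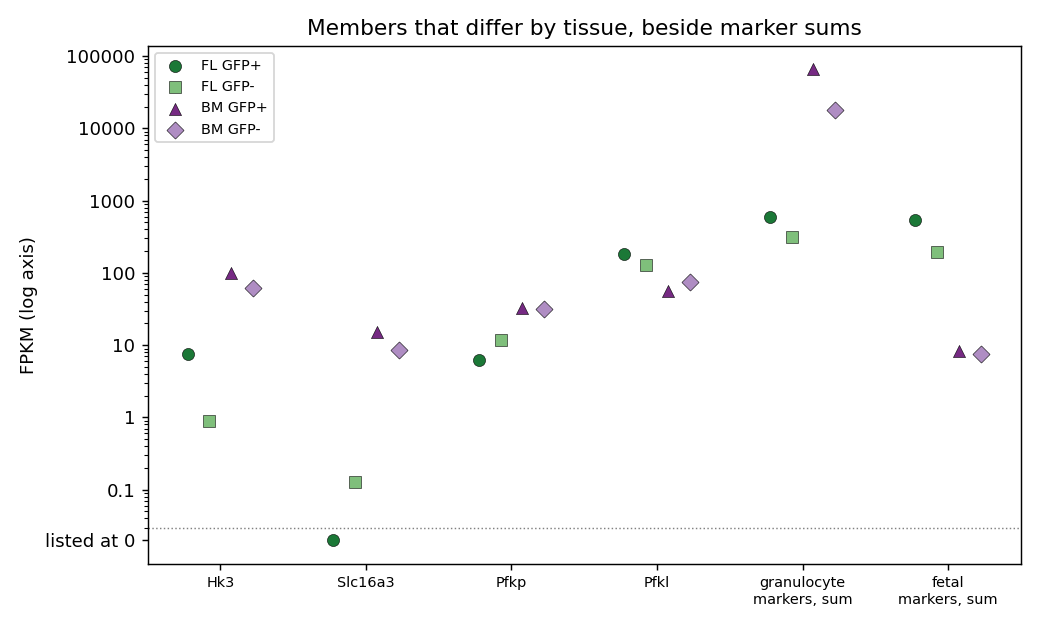
FPKM (log axis) of Hk3, Slc16a3, Pfkp and Pfkl and the summed FPKM of 12 granulocyte and 10 fetal genes, with 1 point per sample. Hk3, Slc16a3 and Pfkp are higher in both BM samples, as are the granulocyte genes (18058.5 and 65387 against 310.5 and 588), whereas Pfkl and the fetal genes are higher in both FL samples.

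Neighbouring pathways were examined through lists of their other genes. Of 38 further genes of glucose and pyruvate metabolism, 9 were past 2-fold higher in the BM and 3 in the FL in both fractions, against 10.7% and 6.7% of all genes. The BM-high ones included Mpc1, a subunit of the mitochondrial pyruvate carrier, with 58.6 (GFP+) and 39.1 (GFP-) FPKM in FL and 154 (GFP+) and 108 (GFP-) in BM. G6pc3, a glucose phosphatase, had 12.4, 43.9, 57.9 and 91.3. Bpgm, which makes the bisphosphoglycerate of red cells, had 3.16, 12.3, 71.7 and 30.2, and was highest, as the erythroid genes were, in the BM GFP+ sample, their part in it being not tested. The FL-high ones included Slc16a7, which encodes a pyruvate and lactate transporter, with 18.8, 9.23, 4.65 and 3.30. As a check for RNA of the surrounding liver, 8 hepatocyte genes summed to 361 (GFP+) and 29.4 (GFP-) FPKM in FL and 13.3 (GFP+) and 6.99 (GFP-) in BM. The part of hepatocyte RNA in the FL levels was not tested.

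The pentose phosphate pathway branches off after hexokinase and yields NADPH and ribose. Its 9 genes summed to 898 (GFP+) and 722 (GFP-) FPKM in FL and 2104 (GFP+) and 1424 (GFP-) in BM. Between the GFP+ samples 5 of the 8 detected were past 2-fold higher in the BM, against 36% of all genes, and none in the FL, against 27%. Between the GFP- samples 2 were higher in the BM and 1 in the FL, against 29.2% and 21.9%. Taldo1, which encodes transaldolase, was past 2-fold in both, with 282, 229.6, 1058 and 691. The tricarboxylic acid cycle genes, by contrast, had sums that differed less between tissues as deposited. None of the 20 was past 2-fold between the GFP- samples of FL and BM, against 21.9% (higher in FL) and 29.2% (higher in BM) of all genes. Between the GFP+ samples 3 were higher in each direction, against 27% (FL) and 36% (BM). Their summed FPKM was 2929.8, 2459, 2731 and 3119.9 in the order FL GFP+, FL GFP-, BM GFP+ and BM GFP-. The sums and counts of both pathways are for the deposited scale. With equal FPKM totals, log2 ratios of FL over BM shift by 0.63 between the GFP+ and 0.43 between the GFP- samples. That shift makes the pentose phosphate difference smaller and, between the GFP+ samples, the tricarboxylic acid cycle difference larger, so the contrast depends on the scale.

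Of 23 genes of the hypoxia pathway, 1 was past 2-fold higher in GFP+ and 3 in GFP- cells of both tissues, against 2.51% and 13.1% of all genes. Kdm3a, a histone demethylase induced by HIF in many cells, was the GFP+ one, with 36.0 against 12.5 FPKM in the FL and 29.4 against 11.2 in the BM. P4ha1, a prolyl hydroxylase of collagen that is also a HIF target, went the other way, with 2.39 against 11.4 in the FL and 3.51 against 14.3 in the BM. In both fractions 2 genes were past 2-fold higher in the FL and 2 in the BM, against 6.7% and 10.7% of all genes. Mxi1, a MYC antagonist, was an FL-high one, with 8.08, 7.40, 2.50 and 2.17. In proliferation genes, 12 of which were listed, the sum was 838 (GFP+) and 987 (GFP-) in FL and 1317 (GFP+) and 860 (GFP-) in BM.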

How the data were processed

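The 4 RNA samples of sorted LSK-SLAM cells each had a deposited table of gene symbols and FPKM. The authors amplified the RNA by the SMARTer protocol, mapped reads with TopHat, and computed FPKM with Cufflinks 2.2.1 and Cuffnorm, with fragment-bias and multi-read corrections. The study's methods and the submitters' processing notes name different mouse builds, so no gene positions were taken from the files. The study's methods state the mapped reads of each library. The FPKM files themselves show depth through the FPKM worth of 1 fragment, estimated from the lowest values, and approximate fragment numbers rest on the longest transcript.

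The 35 genes and all other lists were chosen with earlier results of these data known. The named genes are the 35 and, of each other list, at most 3 past 2-fold in both tissues or both fractions, those with the highest FPKM. Procr, Tek, Slc2a6, Slc2a8, Slc16a7 and Pfkfb1 fall outside this rule and were chosen after their values were seen. Groups came from the sample labels. Ratios were called past 2-fold on FPKM, the study's threshold, with no filter on low values. The study's rule, 2-fold between GFP fractions in both tissues, was applied too, while counts for each tissue alone and for the tissue contrast are additions, and medians used log2(FPKM + 1), which understates changes of low genes. The additive model of GFP and tissue was fitted with limma 3.58.1 (R 4.3.3) with a variance trend, on genes with at least 1 FPKM in 2 samples. Benjamini-Hochberg adjustment over all genes tested was used at 0.05. A run on simulated data had additive GFP changes and no tissue difference, so it does not check how the model suits these data. With 1 sample per group the model's p-values measure departure from additivity, not the spread between animals. Copies elsewhere in the genome were sought with minimap2. Alternatives covered the fold threshold, low-value filters, pseudocount, scaling, trend and block.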

Additional observations from a re-analysis of the deposited data

Results flagged for a closer look

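In 3 genes a difference was past 2-fold one way in 1 tissue or fraction and past 2-fold the opposite way in the other. By sign alone, 15 of the 35 genes had opposite GFP ratios in FL and BM, and 18 had opposite tissue ratios in GFP+ and GFP- cells, as deposited. The shares of all genes that do either were not counted, so these counts are not read as particular to the list. Such differences between tissues or fractions were not tested, since no group had a replicate. The log2 ratio of GFP+ to GFP- cells for Pfkfb2 was higher in the FL than in the BM by 2.94, with 5.06 against 1.57 FPKM in the FL and 0.101 against 2.60 in the BM. The log2 ratio of FL to BM for Pgam2 was lower between the GFP+ than between the GFP- samples, with a difference of -2.39, from 0 against 1.73 FPKM and 4.30 against 1.76 FPKM. For Eno2 the same difference was -0.77, from 0 against 0.0456 FPKM and 2.66 against 1.25 FPKM, and the GFP+ side of it rests on about 1 fragment.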

How the results depend on the processing

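No paired analysis by replicate number was possible because the labels carry none, and tissue or GFP fraction served as the block of the model. Also, leaving out a sample would leave the model no residual degrees of freedom, so this was not run. With a 1.5-fold threshold, GFP+ over GFP- gave 8 genes higher for FL, and 6 higher and 10 lower for BM. FL over BM gave 13 higher between the GFP+ samples and 8 higher and 9 lower between the GFP- samples. On the deposited scale, 4 genes were higher in GFP+ cells of both tissues. With at least 10 FPKM in either sample, a filter chosen after seeing the data, 0 were higher and 2 lower in GFP+ cells of the FL and 1 lower in the BM, while FL over BM gave 4 lower between GFP+ and 1 higher and 2 lower between GFP- samples. With equal FPKM totals, 0 were higher and 11 lower in GFP+ cells of the BM, and 14 and 8 were higher in the FL between GFP+ and GFP- samples. Shares of all genes were not counted with equal totals. The medians then became -0.14 for GFP in the FL, which turned the sign, -0.45 in the BM, 0.66 for tissue in GFP+ and 0.25 in GFP- samples, the last also a turn of sign. With equal upper quartiles the median turned to -0.10 for GFP in the FL and was -0.016 for tissue in GFP- samples. With at least 1 FPKM in either sample the tissue median in GFP+ samples was 0.16, and 1 gene was higher in GFP- cells of both tissues. The limma tissue calls fell from 1 to 0 without the trend, with a pseudocount of 0.1 and without the block, and the GFP calls were 0 in every alternative. The cause of these changes was not tested beyond what each scaling or filter does by construction.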
